A study of Mus musculus with 2 samples.

Results

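Amino acid transporters were read in cultured primary mouse brain pericytes (PCs) at passage 5 (PC5) and passage 20 (PC20). The 9 genes examined were *Slc7a11*, *Slc7a5*, *Slc3a2*, *Slc7a1*, *Slc7a3*, *Slc1a4*, *Slc1a5*, *Slc38a2* and *Slc6a9*. They were found by their symbols, and all 9 were present among the 31053 genes of the count tables. The cells came from brains of wild type female C57BL/6N mice that were 6 to 8 weeks old, with the brains of 6 mice pooled in an isolation, and carried no transgene or treatment. By the methods of the study the passage 20 cells came from another isolation than the passage 5 cells, so that passage and isolation cannot be told apart, while the design text of the series mentions a single isolation. Each passage was 1 droplet library made with a 3′ kit, so no test between passages was possible and none is given. A cell was kept if it had over 1000 genes and less than 20% of its unique molecular identifiers (UMIs, which count each captured transcript once) from mitochondrial genes, which left 9950 PC5 cells and 4749 PC20 cells.

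Amino acids cross the plasma membrane through carriers of several families. Members of the Slc7 family such as xCT and LAT1 are light chains that reach the membrane only when joined to a heavy chain, the glycoprotein 4F2hc encoded by *Slc3a2*. The carriers encoded by *Slc1a4*, *Slc1a5* and *Slc38a2* bring in neutral amino acids with sodium, other Slc7 members bring in arginine and lysine, and GlyT1 takes up glycine. When uncharged tRNA or misfolded protein accumulates, translation of the transcription factor ATF4 rises, and ATF4 binds C/EBP-ATF response elements in many genes of amino acid synthesis and transport. *Slc7a11* is also a known target of NRF2, the transcription factor of the antioxidant response. In the brain, xCT exchanges cystine for glutamate, which links it to glutathione synthesis, and pericytes sit at the capillary wall across which amino acids reach the tissue.

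The 250 bases before the annotated start sites were searched on both strands for 3 motifs: the C/EBP-ATF response element (TGATGNAAN), the antioxidant response element (TGACNNNGC) and the E-box bound by MYC (CACGTG). RefSeq promoters of build GRCm38.p6 were given for 6 of the 9 genes, with 9 start sites, and *Slc7a5*, *Slc7a3* and *Slc1a5* had no entry. *Slc7a11* held the C/EBP-ATF letters at 2 places, TGATGCAAA from -66 to -58 and TTTGCATCA (the other strand) from -48 to -40 relative to the start. Of all 32851 RefSeq promoters 3.44% held at least 1 such match, and 13 promoters held 2 or more. The antioxidant response element letters occurred in *Slc7a1* (first start site), *Slc38a2* and *Slc6a9* (the second and the third of its 3 start sites), and in 10.2% of all promoters. At the second *Slc6a9* start site the match, from -46 to -38, lies in 157 bases next to the start that are annotated as exon. All 250 bases of the second *Slc7a1* window and of the first *Slc6a9* window are annotated as exon. No E-box letters were in the 9 windows, against 6.02% of all promoters. A match describes the letters only and a window without a match says nothing of binding. The 3 sequences shown are those that hold a match and no annotated exon base, each read 5′ to 3′ on the strand of the gene, with the matches in capitals. They lie at chr3:50443615-50443863, chr5:148399905-148400154 and chr15:96699731-96699978, all on the minus strand.
Slc7a11: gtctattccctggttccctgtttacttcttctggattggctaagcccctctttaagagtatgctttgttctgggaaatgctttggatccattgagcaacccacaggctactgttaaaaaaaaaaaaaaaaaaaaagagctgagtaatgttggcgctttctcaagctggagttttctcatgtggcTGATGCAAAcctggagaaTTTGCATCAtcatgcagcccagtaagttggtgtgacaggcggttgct
Slc7a1: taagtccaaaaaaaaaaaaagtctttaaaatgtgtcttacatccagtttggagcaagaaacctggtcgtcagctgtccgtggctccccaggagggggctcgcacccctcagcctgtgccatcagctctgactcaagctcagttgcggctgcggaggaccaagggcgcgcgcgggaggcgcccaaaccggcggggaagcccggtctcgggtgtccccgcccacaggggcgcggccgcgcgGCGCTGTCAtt
Slc38a2: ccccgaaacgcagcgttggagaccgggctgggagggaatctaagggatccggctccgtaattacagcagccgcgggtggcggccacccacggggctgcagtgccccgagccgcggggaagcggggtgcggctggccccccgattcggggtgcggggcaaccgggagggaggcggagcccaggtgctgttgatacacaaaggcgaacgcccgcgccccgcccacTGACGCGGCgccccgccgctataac

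Some facts of both libraries bear on every value. Summed over cells, PC5 gave 223054273 UMIs and PC20 gave 191122251, at a median per cell of 21700 and 33424, so that shares of cells were compared after each cell was thinned to 10500 UMIs (8847 and 4474 cells were deep enough). Levels are given as UMIs per 1000000 of the library (CPM), and the 95% intervals cover counting error only, not the spread between cultures. The libraries shared 20 cell barcodes, and leaving these out kept all 9 log2 ratios within their intervals. Of the canonical PC markers, *Pdgfrb* had a UMI in 35.3% of thinned PC5 cells and 5.32% of PC20 cells, *Cspg4* in 4.51% and 0.0671%, *Anpep* in 2.20% and 2.82%, and *Rgs5* in 1.48% and 0% (0 UMIs in PC20, which allows up to 3), and *Abcc9* had 1 UMI in each library. Fibroblast markers summed to 1302 CPM for PC5 cells against 101 CPM for PC20 cells, smooth muscle markers to 283 and 49.5 CPM, and endothelial markers to 215 and 179 CPM. The endothelial sum joined genes of both directions, with *Cdh5* at 168 and 0.0262 CPM and *Kdr* at 12.8 and 0.0680 CPM, but *Flt1* at 17.6 and 73.9 CPM and *Ly6c1* at 14.0 and 104 CPM, while *Pecam1* had 121 and 21 UMIs. Astrocyte markers summed to 151 and 229 CPM, nearly all of it *Slc4a4* (143 and 229 CPM). The other astrocyte markers were higher in PC5. Of these, *Aldh1l1* was at 7.35 and 0.0262 CPM, and *Gfap*, *Aqp4* and *S100b* were below 1 CPM in both libraries. Microglia and oligodendrocyte markers also stayed below 1 CPM in both. The part of these marker differences in the transporter differences was not tested.

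The transporter genes were mostly more abundant in PC20. They were chosen with earlier results of these data known, so their shared direction is a description only. Together they gave 261 CPM for PC5 cells against 868 CPM for PC20 cells, and 8 of the 9 had a higher level in PC20. On the log2 scale (PC5 over PC20, negative where PC20 was higher) their median was -1.38, beside -0.03 over all 10504 expressed genes (a UMI seen in 10% or more of the cells in either library). Of these expressed genes 5365 had a higher level in PC20. A fold of 2 toward PC20 was passed by 5 of the 9 genes (*Slc3a2*, *Slc7a5*, *Slc1a5*, *Slc38a2* and *Slc6a9*), and 19.1% of all expressed genes passed it in that direction. None of the 8 expressed members passed the fold toward PC5, against 17.9% of all expressed genes, and the ninth, *Slc7a3*, was too rare to be counted as expressed. With the log2FC on mean scaled UMIs plus a pseudocount of 1, which shrinks rare genes, only *Slc3a2* was below -1 (-1.73), as were 1.37% of the expressed genes, and no member was above 1, as were 1.4% of them.

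**Figure D1:**
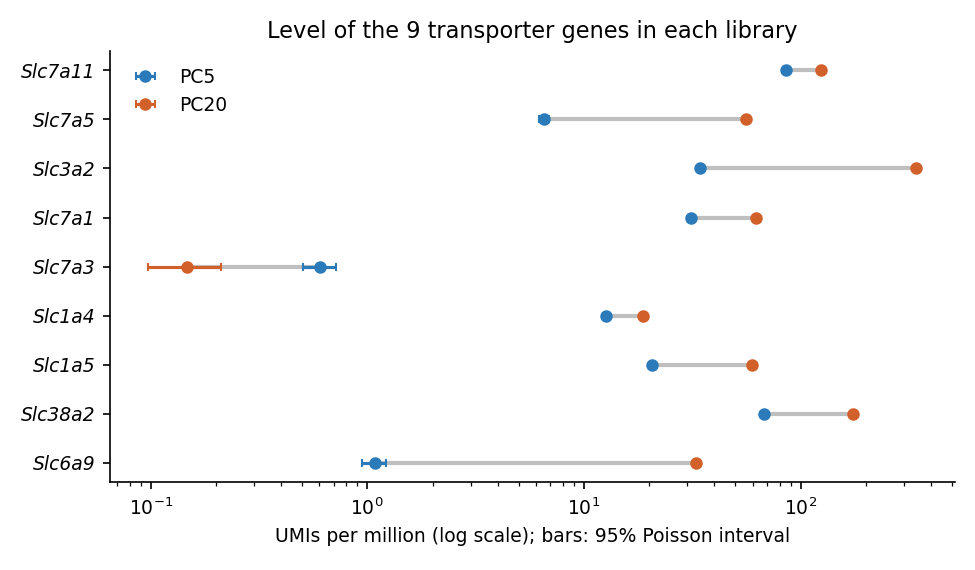
Level of each of the 9 transporter genes in the PC5 and the PC20 library, in UMIs per 1000000 on a log axis, with 95% Poisson intervals that are often narrower than the points. The PC20 point lies to the right for 8 genes, and *Slc7a3*, at 0.605 and 0.147 CPM, is the exception.

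*Slc3a2*, the heavy chain that LAT1, xCT and several other light chains need (chr19:8706882-8723369, minus strand), was the most abundant of the 9 in PC20. Its level was 34.3 CPM (95% interval 33.5 to 35.1) for PC5 cells against 339 CPM (337 to 342) for PC20 cells, a log2 ratio of -3.31 (-3.34 to -3.27) or 9.89-fold. It was the third of the 9 in level in PC5 and the first in PC20. In thinned cells it had a UMI in 29.5% (28.6 to 30.5) of PC5 cells and 95.5% (94.8 to 96.1) of PC20 cells. The median PC20 cell held 3 *Slc3a2* UMIs, and the median PC5 cell held 0. Of the expressed genes, 272 had a lower log2 ratio than *Slc3a2*.

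*Slc7a5* encodes LAT1, the light chain that carries leucine and other large neutral amino acids and that endothelial cells of the brain are known for (chr8:121881150-121907694, minus strand). Its level was 6.54 CPM (6.21 to 6.88) for PC5 cells against 55.8 CPM (54.7 to 56.8) for PC20 cells, which gave a log2 ratio of -3.09 (-3.17 to -3.01). The share of thinned cells with a UMI was 6.02% (5.54 to 6.54) in PC5 and 42.3% (40.8 to 43.8) in PC20. Its fold of 8.53 was somewhat below the 9.89 of its heavy chain.

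*Slc7a11* encodes xCT, the light chain that exchanges extracellular cystine for glutamate (chr3:49892526-50443614, minus strand). It had the highest level of the 9 in PC5, at 86.0 CPM (84.7 to 87.2), and the third highest in PC20, at 124 CPM (122 to 125). The log2 ratio of -0.53 (-0.55 to -0.50) was the smallest in size among the 8 genes higher in PC20. Its share of thinned cells differed more than its level, with 33.4% (32.4 to 34.3) in PC5 and 58.9% (57.5 to 60.4) in PC20. In PC5 its UMIs were thus concentrated in fewer cells.

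The heavy chain and its light chains stood in different proportions in the 2 libraries. Summed over *Slc7a5*, *Slc7a6*, *Slc7a7*, *Slc7a8*, *Slc7a10* and *Slc7a11*, PC5 held 3.62 light chain UMIs for each *Slc3a2* UMI and PC20 held 0.553. These are counts of captured 3′ ends, so a ratio between genes also carries how well each is captured, while the difference between libraries does not depend on gene length. *Slc7a11* made up a like part of the light chain UMIs in both, 69.2% (68.7 to 69.8) in PC5 and 66.1% (65.6 to 66.6) in PC20. *Slc7a5* made up 5.26% (5.00 to 5.53) in PC5 and 29.8% (29.3 to 30.2) in PC20. The rest of the PC5 light chains were *Slc7a6* (y+LAT2, 10.9%), *Slc7a8* (LAT2, 10.2%) and *Slc7a7* (y+LAT1, 4.31%). In PC20 *Slc7a6* held 4.07%, *Slc7a7* had 38 UMIs and *Slc7a8* had 1 UMI. *Slc7a10* was at 0 UMIs in both, which allows up to 3 UMIs in each library.

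**Figure D2:**
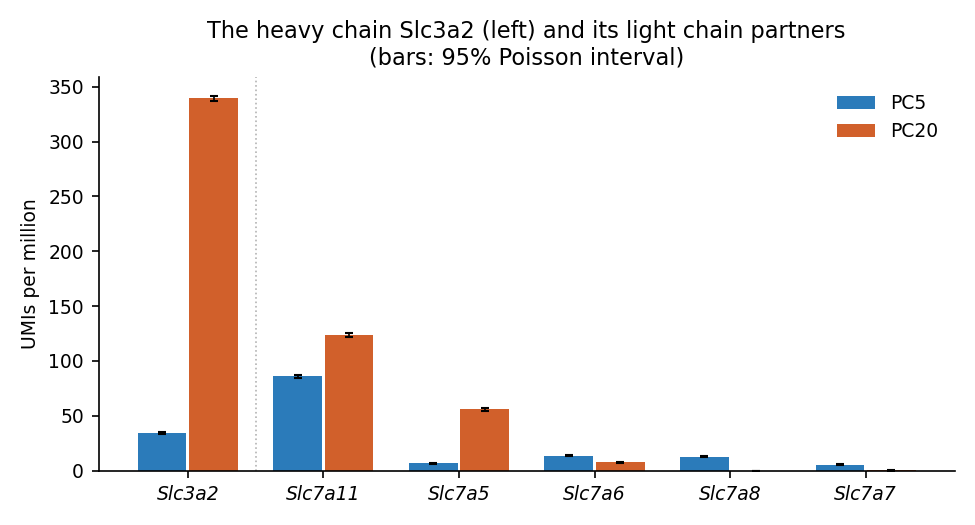
Levels in UMIs per 1000000 of the heavy chain *Slc3a2* and of 5 light chains in PC5 and PC20, with 95% Poisson intervals. *Slc3a2* is below *Slc7a11* in PC5 (34.3 against 86.0 CPM) and above it in PC20 (339 against 124 CPM), while *Slc7a6*, *Slc7a8* and *Slc7a7* are higher in PC5.

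The cationic carriers *Slc7a1* and *Slc7a3* take up arginine and lysine without a heavy chain. *Slc7a1* (CAT1, chr5:148327410-148399904, minus strand) was at 31.3 CPM (30.6 to 32.1) for PC5 cells against 62.5 CPM (61.4 to 63.6) for PC20 cells. Its unrounded log2 ratio of -0.9963 (-1.04 to -0.95) fell just short of the fold of 2, so the count of 5 genes past that fold would be 6 with a slightly lower threshold. A UMI was present in 25.7% (24.8 to 26.6) of thinned PC5 cells and in 45.1% (43.6 to 46.6) of PC20 cells.

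*Slc7a3* (CAT3, chrX:101079210-101086020, minus strand), a carrier known mainly from neurons, was the rarest of the 9 in both libraries. It had 135 UMIs in PC5 and 28 in PC20. Its level of 0.605 CPM for PC5 cells against 0.147 CPM for PC20 cells gave a log2 ratio of 2.05 (1.45 to 2.69). The share of thinned cells with a UMI was 0.486% (0.352 to 0.654) in PC5 and 0.134% (0.0492 to 0.292) in PC20. Among 12 genes listed for other lineages, *Tnnt3* had shares of 0.407% in PC5 and 0.291% in PC20, *Stmn2* had 21.3% in PC5, and the others had at most 0.0791% in PC5 and 0.0447% in PC20. The *Slc7a3* interval in PC5 takes in the *Tnnt3* share and lies above the shares of the others apart from *Stmn2*. In PC20 the *Slc7a3* share lay below that of *Tnnt3* and above those of the others. With so few UMIs these values do not separate *Slc7a3* from *Tnnt3*, so low expression and background cannot be told apart here.

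The neutral carriers *Slc1a5*, *Slc1a4* and *Slc38a2* were all higher in PC20. *Slc1a5* (ASCT2, a sodium-dependent exchanger of glutamine and other neutral amino acids, chr7:16781340-16798274, plus strand) was at 20.7 CPM (20.1 to 21.3) for PC5 cells against 59.4 CPM (58.3 to 60.5) for PC20 cells, with a log2 ratio of -1.52 (-1.57 to -1.47). Its share of thinned cells was 18.9% (18.1 to 19.8) in PC5 and 44.3% (42.9 to 45.8) in PC20. *Slc1a4* (ASCT1, a carrier of alanine, serine and cysteine, chr11:20302180-20332713, minus strand) differed less than its paralog. Its levels were 12.7 CPM (12.2 to 13.1) and 18.7 CPM (18.1 to 19.4), with a log2 ratio of -0.57 (-0.64 to -0.49). The thinned shares of *Slc1a4*, 12.2% (11.5 to 12.9) and 16.7% (15.6 to 17.8), were the nearest to each other among the 8 expressed genes.

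*Slc38a2* (SNAT2, the sodium-coupled carrier of system A, chr15:96687392-96699730, minus strand) was second among the 9 in both libraries. It reached 67.5 CPM (66.5 to 68.6) for PC5 cells against 175 CPM (173 to 177) for PC20 cells, a log2 ratio of -1.38 (-1.40 to -1.35). In PC5 it was the gene found in the largest share of thinned cells, 48.5% (47.5 to 49.6), against 78.9% (77.7 to 80.1) in PC20.

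*Slc6a9*, which encodes the glycine carrier GlyT1 (chr4:117834506-117875198, plus strand), had the largest fold of the 9. It was nearly absent from PC5, at 1.08 CPM (0.948 to 1.23) from 241 UMIs, and reached 32.9 CPM (32.1 to 33.7) from 6290 UMIs in PC20. The log2 ratio was -4.93 (-5.12 to -4.74), or 30.5-fold, and 136 of the expressed genes had a lower one. A UMI was found in 1.05% (0.849 to 1.29) of thinned PC5 cells and in 27.4% (26.1 to 28.8) of PC20 cells. The PC5 share was above the 0.407% of *Tnnt3*, the highest of the genes listed for other lineages apart from *Stmn2*.

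**Figure D3:**
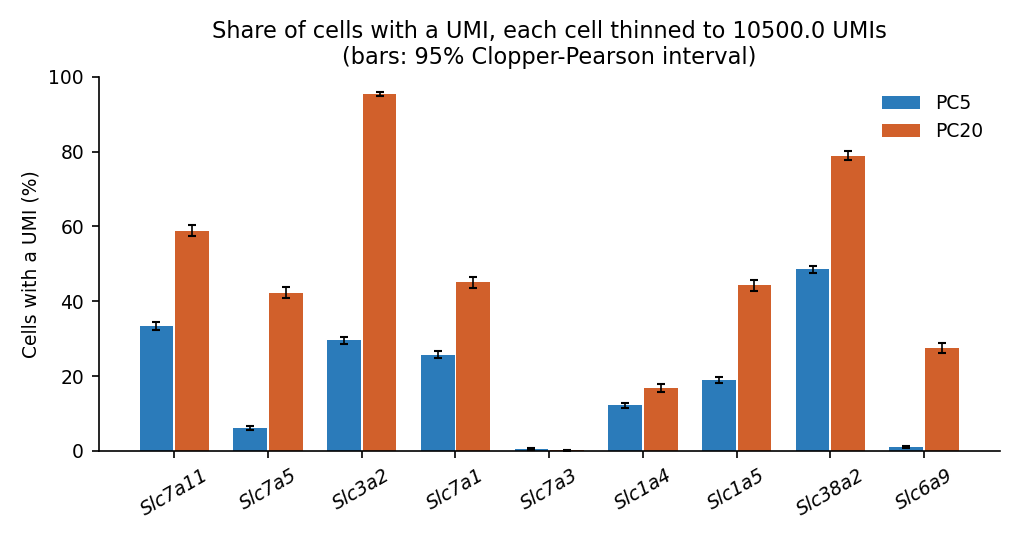
Percent of cells with at least 1 UMI of each gene after every cell was thinned to 10500 UMIs (8847 PC5 cells and 4474 PC20 cells), with 95% Clopper-Pearson intervals. The PC20 bar is higher for 8 genes, from 16.7% for *Slc1a4* to 95.5% for *Slc3a2*.

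Within each library the intervals of neighbours in the order of levels did not overlap. In PC5 the order ran *Slc7a11*, *Slc38a2*, *Slc3a2*, *Slc7a1*, *Slc1a5*, *Slc1a4*, *Slc7a5*, *Slc6a9* and *Slc7a3*. In PC20 it ran *Slc3a2*, *Slc38a2*, *Slc7a11*, *Slc7a1*, *Slc1a5*, *Slc7a5*, *Slc6a9*, *Slc1a4* and *Slc7a3*. Of the summed UMIs of the 9 genes, *Slc7a11* made up 33.0% in PC5 and 14.3% in PC20, and *Slc3a2* made up 13.2% and 39.1%. A thinned PC5 cell held UMIs of a median of 2 of the 9 genes and a PC20 cell of 4. At least 5 of the 9 were seen in 1.25% of thinned PC5 cells and in 39.2% of PC20 cells, and the median summed count was 2 UMIs against 9. No gene on the same strand overlapped any of the 9. Genes on the other strand overlapped *Slc7a11* (*Gm37854*), *Slc7a5* (*Gm20388*) and *Slc6a9* (*Ccdc24* and *B4galt2*), and whether the counting used strand is not given in the sources used here.

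*Slc7a11* was spread unevenly over PC5 cells. The variance of its UMIs over thinned PC5 cells was 6.20 times the mean, while that of the other 8 genes lay between 0.995 and 1.21 times the mean. This ratio stays near 1 for rare genes, so it does not rank the rare members by unevenness. *Slc38a2*, nearest to *Slc7a11* in mean (0.711 and 0.998 UMIs per thinned PC5 cell), had a ratio of 1.16. The 10% of PC5 cells with the most *Slc7a11* held 67.2% of its UMIs. In PC20 the variance was 2.16 times the mean, the highest of the 9 there as well, and the top 10% of cells held 39.2%. Cells with 10 or more *Slc7a11* UMIs made up 1.66% of thinned PC5 cells (147 cells) and carried 24.6% of its UMIs, against 9 cells (0.201%) in PC20. At the other end, 66.6% of PC5 cells and 41.1% of PC20 cells had no *Slc7a11* UMI.

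Cell depth and division moved with *Slc7a11* in PC5. When PC5 cells were divided by UMI count into 4 groups of equal size, its level was 147, 104, 82.3 and 60.9 CPM from the shallowest group to the deepest. In PC20 the same division gave 101, 125, 129 and 125 CPM. Thinned PC5 cells with a *Mki67* or *Top2a* UMI, genes of dividing cells, had 0.664 *Slc7a11* UMIs per cell and those without had 1.18, a log2 difference of -0.84 (-0.91 to -0.76). In PC20 these means were 1.28 and 1.33, a log2 difference of -0.05 (-0.13 to 0.02). *Slc7a5* went the other way in PC5, with 0.0908 UMIs per dividing cell and 0.0503 per cell without either UMI, a log2 difference of 0.85 (0.61 to 1.09). The intervals of these differences treat UMIs as independent and leave out the spread between cells, which was wide for *Slc7a11* in PC5. The share of dividing cells itself differed between libraries. Among cells with neither UMI before thinning (5475 PC5 and 1321 PC20 cells) the PC5 over PC20 log2 ratio of *Slc7a11* was -0.19 in place of -0.53. Depth also bears on which cells lack both UMIs, and the parts of depth and division in this change were not tested.

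Cells rich in *Slc7a11* also held more of its heavy chain in PC5. Across PC5 cells with 0, 1 to 2, 3 to 9 and 10 or more *Slc7a11* UMIs, the mean *Slc3a2* count was 0.320, 0.388, 0.572 and 1.04 UMIs per cell. Pearson's r of the pair over the 8847 thinned cells was 0.153, the highest of the 36 pairs of the 9 genes in PC5, and 1050 cells held both where independence would give 872. Like *Slc7a11*, *Slc3a2* was lower in deeper PC5 cells, at 43.5 CPM in the shallowest depth group and 31.2 CPM in the deepest. In PC20 the shallowest and the deepest groups had 377 and 315 CPM of *Slc3a2*, but 101 and 125 CPM of *Slc7a11*. The part of depth in the r of the pair was not tested in either library. In PC20 the mean *Slc3a2* count was 3.76, 3.74 and 3.70 UMIs in the first 3 of these bins, and r of the pair was 0.003 over 4474 cells. The last PC20 bin, of 9 cells, is too small to read. The median r over the 36 pairs was 0.015 in PC5 and 0.037 in PC20, and a weak r in such sparse counts is no finding.

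**Figure D4:**
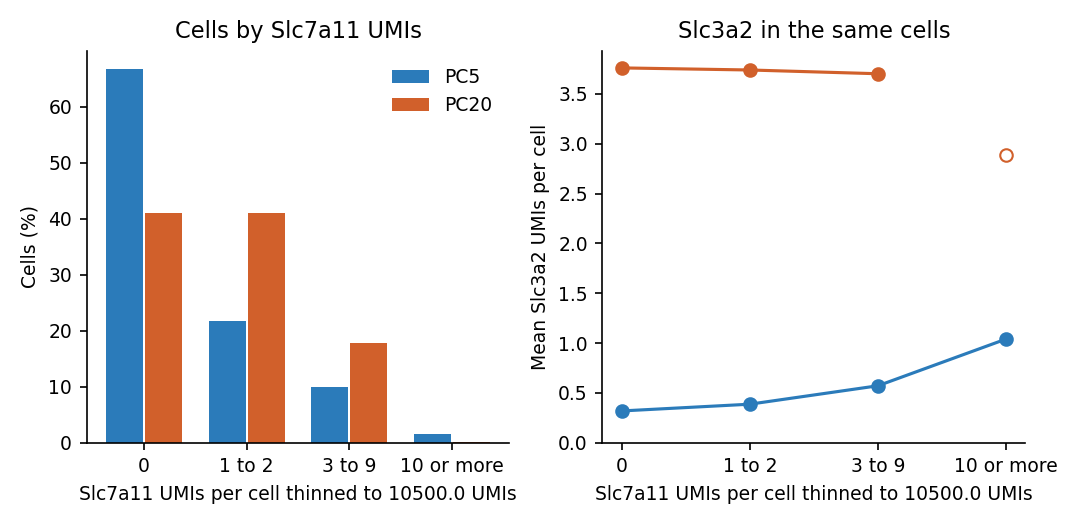
Left, percent of thinned cells of each library by the number of *Slc7a11* UMIs per cell; right, mean *Slc3a2* UMIs per cell in the same cells. In PC5 the mean of *Slc3a2* goes from 0.320 to 1.04 over the bins, and the open PC20 point rests on 9 cells.

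The genes whose UMIs followed those of *Slc7a11* most closely were not the same in the 2 libraries. In PC5 the nearest of 7443 genes was *Fth1* (ferritin heavy chain, r = 0.316), and *Ifitm1* (an interferon-induced membrane protein, 0.259) was also among the nearest 3. Mean *Fth1* over the 4 bins of PC5 cells was 143, 181, 238 and 287 UMIs per cell. In PC20 the nearest 3 of 7295 genes were *Gclm* (a subunit of the enzyme that starts glutathione synthesis, 0.303), *Ptgs2* (cyclooxygenase 2, 0.290) and *Hmox1* (heme oxygenase 1, 0.289). Mean *Gclm* over the first 3 bins of PC20 cells was 7.97, 10.0 and 12.9 UMIs per cell, and mean *Hmox1* was 4.87, 6.83 and 8.99. In PC5 mean *Gclm* over all 4 bins was 0.440, 0.417, 0.384 and 0.633, and mean *Hmox1* was 0.574, 0.645, 0.757 and 1.46, so *Hmox1* was higher in cells richer in *Slc7a11* in both libraries.

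For the other members the nearest genes had lower r, and all such values are descriptions across cells that share a library. In PC5 *Slc3a2* had *Slc7a11* as its nearest gene (0.153), followed by *Gm42418* (0.067) and *Neat1* (0.065). *Slc38a2* was nearest to nuclear RNAs and a transcription factor, *Xist* (0.130), *Tcf4* (0.123) and *Malat1* (0.120). *Slc7a1* was nearest to *Akap12* (0.124), *Cd44* (0.113) and *Set* (0.109), and *Slc1a5* to *Ptma* (0.090), *Pclaf* (0.086) and *Srsf2* (0.083). For *Slc1a4* the nearest were *Sparc*, *Col1a1* and *Lgals9*, all at or below 0.059.

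In PC20 *Slc3a2* was nearest to *Ddit3* (the stress factor CHOP, 0.201), *H3f3b* (0.196) and *Ndrg1* (0.186). *Slc7a5* was nearest to *Serpinh1* (0.156), *Ero1l* (0.148) and *Car9* (0.143), which serve collagen folding, disulfide formation and pH control. *Slc6a9* was nearest to *Hspa5* (the chaperone BiP, 0.154), *Prkg2* (0.122) and *Gclm* (0.115), and *Slc1a4* to *Txnrd1* (0.092), *Csf1* (0.092) and *mt-Nd3* (0.084). Mitochondrial transcripts led for the remaining genes. The nearest to *Slc38a2* were *mt-Co3* (0.221), *mt-Co2* (0.217) and *mt-Atp6* (0.211), those of *Slc1a5* were *mt-Co3* (0.176), *mt-Nd3* (0.171) and *mt-Co2* (0.169), and *Slc7a1* had *mt-Co3* (0.167), *Prkg2* (0.166) and *mt-Cytb* (0.160).

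Cell quality measures moved with several members in both libraries. In PC20 r of *Slc38a2* was 0.220 with the mitochondrial share of the cell, 0.260 with the number of genes seen at 10500 UMIs, and -0.206 with the ribosomal protein share. *Slc1a5* had 0.178, 0.194 and -0.156 with the same 3 measures in PC20, and *Slc3a2* had -0.029, 0.080 and -0.160. In PC5 *Slc38a2* had 0.111, 0.179 and -0.134. *Slc7a11* had 0.028, -0.102 and 0.118 in PC5, but 0.141, 0.162 and -0.065 in PC20. A regression, given with the scores, took in the mitochondrial and ribosomal shares but not the number of genes per cell. The r values of the nearest genes were not put through it, so the part of these measures in them was not tested.

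Genes listed as amino acid response genes were mostly higher in PC20, as most of the transporters were. The gene lists were chosen with earlier results of these data known, so their direction is a description only. Whether ATF4 or NRF2 acted on any of these genes was not tested. Of 25 listed genes 24 were expressed, 23 of them were higher in PC20, and 22 passed the fold of 2, with a median log2 ratio of -2.39. Over all 10504 expressed genes 5365 were higher in PC20, and 19.1% passed that fold. The largest differences were in *Trib3* (a pseudokinase, -6.04), *Cth* (cystathionine gamma-lyase, -5.32) and *Ddit3* (-5.32), and *Sesn2* was the only one higher in PC5 (0.22). *Atf4* itself was at 104 CPM for PC5 cells against 433 CPM for PC20 cells, a log2 ratio of -2.05 (-2.07 to -2.03). Of 14 NRF2 target genes 13 were higher in PC20 and 11 passed the fold of 2, with a median of -2.35, led by *Gclm* (-4.51), *Osgin1* (-4.45) and *Nqo1* (-4.03), and with *Pgd* (0.08) alone on the other side. *Nfe2l2*, which encodes NRF2, had a log2 ratio of -0.73 (-0.75 to -0.70) and *Myc* one of -0.43 (-0.47 to -0.40). Among the 8 regulator genes examined, the sensor kinase *Eif2ak3* was the only expressed one higher in PC5 (0.57).

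Within PC20 most of the 9 transporters were higher in cells with a higher amino acid response score, which is the mean z-score of 24 of the listed genes in a cell and holds no transporter. The median r of the 9 genes with it was 0.157 over 4474 PC20 cells, beside a median of 0.025 over 7272 genes with a UMI in at least 10% of thinned cells. The values lay between 0.138 (*Slc6a9*) and 0.169 (*Slc1a5*) for 7 of them, with *Slc1a4* at 0.071 and *Slc7a3* at 0.007. For 5% of all genes r was above 0.147, so 6 of the 9 lay above that mark. After regression on S, G2M, mitochondrial and ribosomal shares the median r was 0.117.

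PC20 cells were divided by this score into 10 groups of equal size, and the step from the lowest group to the next was a large part of the difference for *Slc3a2*, *Slc38a2* and *Slc7a11* and a smaller part for *Slc7a5* and *Slc1a5*. *Slc3a2* had 2.91 UMIs per cell in the lowest group, 3.61 in the next and 4.04 in the highest. For *Slc38a2* these means were 1.26, 1.66 and 2.04 UMIs per cell. *Slc7a11* went from 0.743 through 1.11 to 1.47, *Slc7a5* from 0.310 through 0.471 to 0.767, and *Slc1a5* from 0.304 through 0.451 to 0.779. The lowest group also had fewer genes per cell at equal depth (median 2785, against 2885 to 3058 in the other groups) and a lower mitochondrial share (1.46% against 1.75% to 2.23%), and their part in the result was not tested within groups.

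In PC5 the same score had a median r of 0.086 with the 9 genes over 8847 cells, beside 0.015 over 7426 genes. For 5% of these genes r was above 0.051, a lower mark than the 0.147 of PC20. Of the 9 only *Slc7a3* (0.045) and *Slc7a11* lay below the PC5 mark. The lower r values in PC5 thus do not mean that the 9 stood out less from all genes there. The values of *Slc6a9*, *Slc7a5* and *Slc7a1* were 0.121, 0.103 and 0.099, and 4, 14 and 16 of the 7426 genes had a higher r. *Slc6a9* and *Slc7a5* were themselves below the 10% detection limit of those genes, *Slc6a9* rested on 101 UMIs, and by Spearman's rho it was behind *Slc7a5*, *Slc7a1* and *Slc1a4* (0.062 against 0.070, 0.066 and 0.063). *Slc7a11* was the only one of the 9 with a negative value, -0.008. Its mean was 1.29 UMIs per cell in the lowest of 10 such groups of PC5 cells and 0.984 in the highest. *Slc3a2* went from 0.323 in the lowest to 0.520 in the highest group, and *Slc6a9* from 0.007 to 0.042.

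The NRF2 target score set *Slc7a11* apart in PC20. Its r with that score was 0.317, and 6 of 7282 genes had a higher value. The next of the 9 were *Slc38a2* (0.154) and *Slc6a9* (0.150), and the median of the 9 was 0.104, beside 0.023 over the 7282 genes. In PC5 r of *Slc7a11* with the NRF2 score was 0.019, a value that 2818 of 7432 genes exceeded. The regression left the PC20 value at 0.315 and brought the PC5 value to 0.052. With the MYC target score the 9 genes had a median r of 0.019 in PC5, from -0.084 (*Slc7a11*) to 0.130 (*Slc7a1*), and of 0.127 in PC20, where *Slc1a5* (0.163) and *Slc38a2* (0.157) were highest. Over all genes of the same detection the PC5 median was 0.032, with a 5th to 95th percentile of -0.093 to 0.164 that held all 9. In PC20 the median over all genes was 0.027 and the 95th percentile 0.148.

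**Figure D5:**
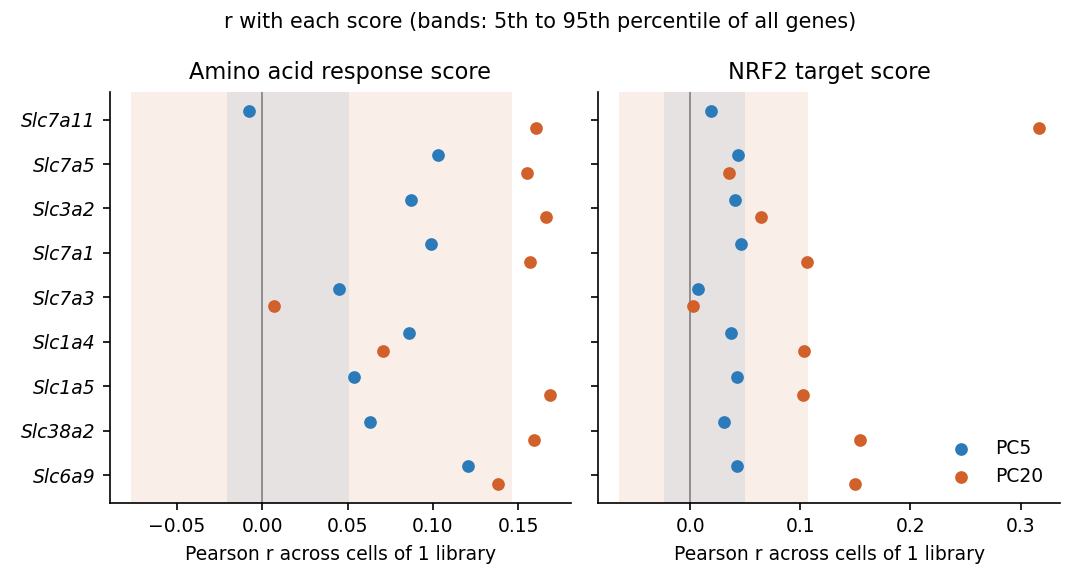
Pearson's r of each of the 9 genes with the amino acid response score (left) and the NRF2 target score (right) across the thinned cells of PC5 and of PC20, with bands from the 5th to the 95th percentile of all genes with a UMI in at least 10% of cells. *Slc7a11* in PC20 is the point at 0.317 in the right panel, and it lies at -0.008 in PC5 in the left.

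The other amino acid transporters of the plasma membrane and lysosome went mostly the other way. This list and the 9 genes were chosen with earlier results of these data known, so the contrast between them is a description only. Of 36 listed, 35 were present in the count tables and 14 passed the 10% detection limit. A higher level in PC5 was found for 11 of the 14, beside 5139 of all 10504 expressed genes. A fold of 2 was passed by 6 toward PC5 and by 1 toward PC20 (17.9% and 19.1% of all expressed genes), and the median log2 ratio of the 14 was 0.70. *Slc7a8* (LAT2) was at 12.7 CPM in PC5 and at 1 UMI in PC20, with a log2 ratio of 11.25 (8.77 to 16.55). *Slc7a2*, the third cationic carrier (CAT2), was at 39.7 CPM for PC5 cells against 0.215 CPM for PC20 cells, a log2 ratio of 7.53 (7.09 to 8.01), and *Slc7a7* had one of 4.75 (4.29 to 5.26). *Slc38a1*, the closest paralog of *Slc38a2*, was the exception past the fold, with 10.1 CPM for PC5 cells against 89.5 CPM for PC20 cells and a log2 ratio of -3.15 (-3.22 to -3.09). *Slc38a7* (-0.62) and the lysosomal arginine sensor *Slc38a9* (-0.43) were the other ones higher in PC20. Summed over the list, these genes gave 273 CPM for PC5 cells against 234 CPM for PC20 cells, beside 261 and 868 CPM for the 9 genes. *Slc38a5*, a glutamine carrier, was at 0 UMIs in both libraries, which allows up to 3 UMIs in each, and was chosen for naming after its value was seen.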

How the data were processed

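Each library was a 10x 3′ single cell library of cultured mouse brain PCs. Per the methods of the study and the submitters' processing notes, the authors mapped reads to mm10 with Cell Ranger (version 5.0, with 5.0.1 in the matrix header), and the deposited files hold raw UMI counts per gene and cell. No column of other samples was met (0). Here, a cell needed over 1000 genes and less than 20% mitochondrial UMIs, no doublet caller was run, and no doublet removal is given in the sources used here. UMIs were summed per library and divided by the library total (CPM, with exact Poisson intervals). Log2 ratios carry exact conditional binomial intervals and shares exact Clopper-Pearson intervals, all at 95%, and they cover counting error only. A gene counted as expressed with a UMI in at least 10% of cells of either library. Cells were thinned to 10500 UMIs without replacement (seed 20). Correlations are Pearson's r of log(1 + UMIs) across thinned cells of 1 library, described without a p-value because cells of 1 library are not replicates. Promoter windows came from RefSeq (GRCm38.p6), and gene positions from GENCODE M21 on the same build.

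Besides the 9 genes, *Atf4*, *Nfe2l2* and *Myc*, the genes named were up to 3 with the largest log2 ratio in each direction per gene list (among expressed genes) and the 3 nearest by r to each member with a UMI in at least 10% of thinned cells. Marker genes, *Slc7a6*, *Eif2ak3* and *Slc38a5* were named in addition. 1 gene that the rule selects is not reported here. The members and lists were chosen with earlier results of these data known. The log2 ratio intervals were checked on simulated Poisson counts without added spread between cells or cultures, so the check does not cover such spread. The score calculation was checked on simulated cells with a known hidden state. Python 3.11.15, numpy 2.4.6, scipy 1.17.1, pandas 2.3.3 and matplotlib 3.10.9 were used.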

Additional observations from a re-analysis of the deposited data

How the results depend on the processing

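No library could be left out, since each passage had 1, and the intervals above hold counting error only. The median log2 ratio of the 9 genes, -1.38, was -1.46 in cells with no *Mki67* or *Top2a* UMI, -1.34 when centred on the median of all expressed genes (a shift of -0.03), -0.39 with a pseudocount of 1 and -1.23 with one of 0.1 on mean scaled UMIs, and -1.32 in cells with a *Pdgfrb* UMI, which was chosen after seeing the data. The count of 5 members past a fold of 2 was 1 with the pseudocount of 1 and stayed within 1.5 times in the other alternatives run. The direction of the log2 ratio changed for none of the 9 genes in the 13 alternatives. For *Slc7a11* the log2 ratio lay between -0.53 and -0.17 over the main setting and these alternatives. The median r with the amino acid response score was 0.134 (PC5) and 0.276 (PC20) in cells not thinned and scaled, 0.058 (PC5) with Spearman's rho, and 0.117 (PC20) after the regression, and it lay between 0.080 and 0.089 (PC5) and between 0.150 and 0.160 (PC20) with each of the 25 listed genes left out in turn (*Cbs*, too rare, was not part of the score of 24). The r of *Slc7a5* with the NRF2 score in PC20 was -0.0012 after the regression and positive otherwise. No paired analysis was possible because each passage had 1 library. The causes of these shifts were not tested beyond the construction of each alternative: a pseudocount shrinks rare genes, and UMIs of cells not thinned keep their depth.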

Other observations

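Carriers of amino acids in the mitochondrial membrane, listed together with the glutathione carrier *Slc25a39*, were divided in direction. Of 11 listed, 8 were expressed, 5 higher in PC5 and 3 higher in PC20, beside 5139 and 5365 of all 10504 expressed genes. *Slc25a44* (1.78), *Sfxn3* (1.62) and *Slc25a22* (1.13) had the largest log2 ratios toward PC5, and *Slc25a13*, an aspartate and glutamate carrier, the largest toward PC20 (-1.37), followed by *Slc25a39* (-0.27) and *Sfxn1* (-0.04). The list summed to 337 CPM in PC5 and 307 CPM in PC20.

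Genes of growth and division were measured with the same lists. Of all 10504 expressed genes 5365 were higher in PC20. Of 14 MYC target genes 9 were higher in PC20, with a median log2 ratio of -0.58, led by *Gnl3* (-1.36), *Mybbp1a* (-1.24) and *Nolc1* (-0.99), while *Cad* (0.45), *Ddx21* (0.45) and *Polr1b* (0.31) led toward PC5. All 14 G2M genes were higher in PC20 (median -1.40), led by *Cdk1* (-1.91), and 13 of 14 S genes (median -0.70), led by *Rrm2* (-1.83), with *Slbp* (0.25) on the other side. *Mki67* had a log2 ratio of -2.50 and *Top2a* one of -1.38.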
